A study of Caenorhabditis elegans with 2 samples.

Results

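The regions described here are the 365 autosomal NHR-10 peaks outside promoters, called non-promoter peaks below. They were taken from the 994 peaks of the authors' optimal list, which had been thresholded by the irreproducible discovery rate. A peak was kept when its summit lay on 1 of the 5 autosomes and in no promoter window. Such a window spans 1000 bp before and 200 bp after each start of a protein-coding transcript. The remaining optimal peaks were 389 autosomal peaks in promoter windows, 142 peaks on X outside them and 98 peaks on X inside them. Coordinates are on the ce11 build (WBcel235), with genes from Ensembl release 115.

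Chromatin from whole Caenorhabditis elegans at the L4 larval stage was immunoprecipitated and sequenced (ChIP-seq). The sex is described as males and females pooled, which could not be checked from peak lists. All worms were of strain OP239, which carries unc-119(ed3) III and the inserted transgene wgIs239 for NHR-10 joined to eGFP. There was 1 group of 2 biological replicates and no second condition, so nothing was compared between treatments or genotypes. The lists hold 21319 regions for replicate 1 and 22317 for replicate 2, each with a signal and no read count, so depth is unknown. Both replicates were set against 1 shared control alignment, per the descriptions deposited with the lists. A whole worm mixes all tissues, and peak lists hold no marker expression by which the labelled stage or tissue could be checked.

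NHR-10 is a nuclear hormone receptor, a family of transcription factors that bind DNA through zinc fingers and often respond to small lipophilic molecules. It is known for its part in switching on the propionate shunt when vitamin B12 is scarce, and C. elegans carries an expanded set of such receptors. Many worm transcripts receive a trans-spliced leader, so an annotated start can lie downstream of the place where transcription begins. A peak outside a promoter window by annotation may for that reason still be close to an initiation site. Enhancers, introns and gene ends are other places where transcription factors are commonly found.

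The 101 bp centred on the summit are shown for 9 non-promoter peaks, chosen to include the strongest site, an example of each motif that was frequent at these summits, and sites at nhr-10, nhr-19 and fat-1. All are on the plus strand, read 5′ to 3′ from the RefSeq sequence of WBcel235. Capitals mark letters that match 1 of the motifs searched, on either strand.
Upstream of pyc-1, chrV:11824093-11824193: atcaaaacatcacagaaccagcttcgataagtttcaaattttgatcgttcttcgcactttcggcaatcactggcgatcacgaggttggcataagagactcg
Beside atfs-1, chrV:14200241-14200341: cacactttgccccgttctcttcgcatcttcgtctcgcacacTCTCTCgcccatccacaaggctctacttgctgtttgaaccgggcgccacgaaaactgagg
Intron of Y111B2A.12, chrIII:12612606-12612706: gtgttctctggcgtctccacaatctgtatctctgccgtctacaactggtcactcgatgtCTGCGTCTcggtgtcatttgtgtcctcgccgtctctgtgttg
Upstream of fos-1, chrV:6000423-6000523: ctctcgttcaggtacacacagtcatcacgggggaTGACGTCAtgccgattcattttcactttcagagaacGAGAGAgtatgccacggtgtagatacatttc
Beside Y105C5B.1413, chrIV:16180998-16181098: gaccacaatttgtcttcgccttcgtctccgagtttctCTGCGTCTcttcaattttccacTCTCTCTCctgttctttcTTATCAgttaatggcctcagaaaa
Intron of nhr-19, chrII:9603581-9603681: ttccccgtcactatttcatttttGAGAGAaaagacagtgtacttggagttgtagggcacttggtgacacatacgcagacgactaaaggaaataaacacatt
Upstream of mml-1, chrIII:7376623-7376723: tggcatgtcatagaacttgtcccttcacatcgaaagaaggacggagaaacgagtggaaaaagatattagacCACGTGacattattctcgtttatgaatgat
Downstream of fat-1, chrIV:13318864-13318964: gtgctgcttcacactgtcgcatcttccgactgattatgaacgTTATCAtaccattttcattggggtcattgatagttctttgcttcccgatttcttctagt
Upstream of nhr-10, chrIII:7116731-7116831: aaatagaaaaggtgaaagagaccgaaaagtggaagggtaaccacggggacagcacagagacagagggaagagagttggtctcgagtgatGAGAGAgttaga

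Summits of the non-promoter peaks lay mostly between genes and in introns, and seldom in coding exons. Intergenic sequence held 191 of the 365 (52.3%, exact 95% interval 47.1 to 57.6%), against 32.2% of the autosomal bases outside promoter windows. Introns held 121 (33.2%, interval 28.3 to 38.2%), against 37.5% of those bases. A further 30 summits (8.22%) were in 3' UTRs, which make up 3.04% of the bases, and 6 (1.64%) in 5' UTRs, which make up 0.391%. Coding exons held 17 (4.66%), against 26.6% of the bases. No summit lay in another kind of exon of a protein-coding gene. Base shares are a description of the sequence available and were not tested.

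**Figure D1:**
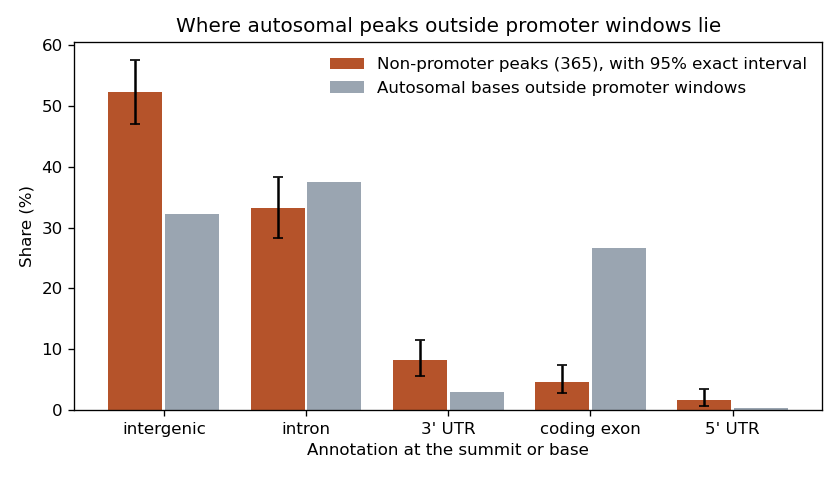
Share of the 365 non-promoter peaks with the summit in each annotation class (left bars, exact 95% intervals) beside the share of autosomal bases outside promoter windows in that class (right bars), in percent. Intergenic sequence held 52.3% of peaks and 32.2% of bases, and coding exons 4.66% and 26.6%.

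Non-promoter peaks were spread over all 5 autosomes. Chromosome II held 82, IV 76, V 73, III 72 and I 62. Per Mb of sequence outside promoter windows this was 7.54 on II, 6.90 on III, 5.85 on IV, 5.49 on I and 4.99 on V. All autosomes together had 6.06 per Mb, and X, which is not among these regions, had 10.3. The central 50% of each chromosome by length held 240 of the 365 summits (65.8%), against 48.3% of the bases outside windows. That share was 74.0% on V and 58.3% on III, the highest and lowest of the 5. Worm autosomes are known for gene-dense centres and more repetitive arms.

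The strongest non-promoter site lay upstream of pyc-1, the gene for pyruvate carboxylase, which makes oxaloacetate from pyruvate. The peak at chrV:11824024-11824337 had a pooled signal of 224.0 and held rank 23 in the first replicate and rank 10 in the second. Its summit lay 1614 bp upstream of the pyc-1 start. A separate optimal peak in the pyc-1 promoter window, with its summit 242 bp upstream of the start, had a signal of 110.8 and ranked 106 and 160. The more distant of the 2 pyc-1 sites was thus the stronger in the pooled list and in each replicate.

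Next came a site of signal 221.1 inside the long noncoding RNA gene linc-128, 4821 bp upstream of cmd-1, which encodes calmodulin. Its ranks were 21 and 15 in replicates 1 and 2, the order kept below. A site beyond the end of atfs-1, a transcription factor of the mitochondrial unfolded protein response, had a signal of 213.1 and ranked 18 and 25. It lay between atfs-1 and T16A9.3, 3946 bp from the atfs-1 start. All 3 sites were among the 25 strongest regions of both replicates.

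The site upstream of fos-1, which encodes a bZIP transcription factor of the Fos family, had a signal of 167.9 and ranked 53 and 27. Its summit was 3128 bp from the start and inside the noncoding RNA gene C10F3.15. The site upstream of mtm-3, a myotubularin phosphatase gene, had a signal of 152.8, with its summit 1084 bp from the start. Its ranks of 252 and 18 were far apart for so strong a site. A site 13395 bp upstream of irld-18 (signal 146.6, ranks 67 and 36) was the most distant of the 15 strongest. The site between Y105C5B.1413 and gln-3, a glutamine synthetase gene, had a signal of 143.0 and ranked 109 and 34. The site upstream of sup-26, an RNA-binding protein gene, had a signal of 128.2 and ranked 91 and 59. Of these, only the mtm-3 and Y105C5B.1413 sites were outside the 100 strongest regions of a replicate, in both cases replicate 1. The mml-1 site, shown above for its E-box, had a signal of 112.9 and ranked 313 and 55, 1942 bp upstream of this gene for a Myc and Mondo-like factor.

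Intergenic sites fell into gaps of all gene orientations in about the proportions of the sequence there. Of the 191, 106 lay between genes on the same strand (55.5%, against 53.4% of intergenic bases outside windows). A further 60 lay between divergent genes (31.4%, against 28.8%) and 25 between convergent genes (13.1%, against 17.6%). The median gap between the flanking genes was 5378 bp, and gaps over 5000 bp held 102 of the sites (53.4%) and 66.6% of the bases. The summit was upstream of the nearest protein-coding start at 135 sites and downstream at 56. The largest gap with a site was 35563 bp.

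Over all 365 peaks, summits were a median of 1954 bp away from the closest protein-coding start, with quartiles of 1265 and 2909 bp. It was 1800 bp for intronic and 2141 bp for intergenic peaks, whereas it is short by definition in promoter peaks (median 222 bp). Within 1000 bp of a start lay 46 peaks, all downstream of it, since the window excludes the sequence upstream. Another 140 lay over 1000 and up to 2000 bp away and 150 over 2000 and up to 5000 bp. Over 5000 and up to 10000 bp away were 24, and beyond that 5. The farthest was an intronic site of gcn-1, 20178 bp from a start.

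**Figure D2:**
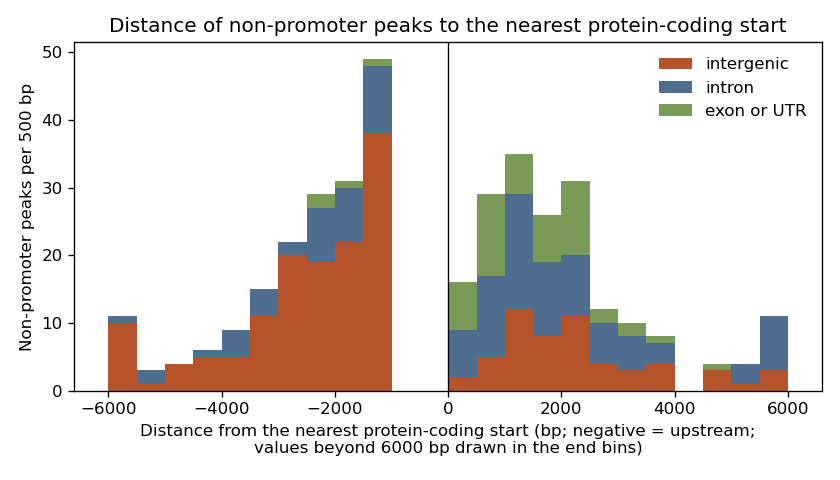
Number of non-promoter peaks per 500 bp of signed distance from the summit to the nearest protein-coding start, stacked by summit class. Upstream distances are negative, the gap from the start to 1000 bp upstream is the excluded window, and 179 peaks lie upstream and 186 downstream of the nearest start.

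The window edge cut through a continuous range of distances. The nearest summits outside it were those of ppm-2, 1015 bp upstream of the start with a signal of 102.2, and lfe-2, 223 bp downstream with a signal of 65.2. The next were Y18D10A.4, 230 bp downstream (68.0), pqn-41, 1033 bp upstream (89.3), and srx-125, 239 bp downstream (58.6). Just inside lay F16G10.6, 986 bp upstream (71.3), Y62E10A.13, 984 bp upstream (58.9), and jun-1, 982 bp upstream (60.8). Also just inside were mdt-26 (87.0) and F58D5.5 (80.6). Within 100 bp of an edge lay 23 non-promoter peaks, within 200 bp 35 and within 500 bp 90.

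The 121 intronic peaks lay in 92 genes, mostly in long introns. Of these genes, 20 hosted more than 1 intronic peak. The intron around the summit had a median length of 3988 bp, against 70 bp over all 90713 autosomal introns. These medians are not like for like, since the second counts each intron once and long introns hold more bases. Introns over 1000 bp held 95 of the 121 (78.5%), against 47.6% of the intronic bases outside promoter windows. A first intron of some transcript held 60 (49.6%), against 28.1% of those bases. For 109 of the 121 the nearest protein-coding start belonged to the host gene, and for 12 to another gene. Since a gene can have several starts, 40 of the 121 lay upstream of their nearest start, within an intron of a longer transcript or of another gene.

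The strongest intronic site lay in intron 4 of Y111B2A.12 at chrIII:12612563-12612751, with a signal of 196.4 and ranks of 26 and 20. A site in intron 5 of W06H8.6 had a signal of 143.7 and ranked 29 and 89. A site in intron 2 of nhr-19, a nuclear hormone receptor gene, at chrII:9603592-9603709 had a signal of 142.5 and ranked 47 and 62. These 3 were ranked among the 100 strongest regions of each replicate. So was a site in intron 1 of gei-4 (signal 142.4, ranks 60 and 39). In intron 4 of pkg-2, which encodes a cGMP-dependent protein kinase, a site of signal 123.5 ranked 118 and 65.

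A few genes had several sites in or near them. The gene ppfr-1, for a regulatory subunit of protein phosphatase 4, hosted 5 in its introns 4 and 5. Their signals ranged from 52.0 to 117.0, and 4 of them formed pairs of overlapping peaks that match the same replicate regions. The gene pqn-41, for a glutamine-rich protein, also hosted 5, all in a 7776-bp first intron, with signals from 60.2 to 104.8. Its peaks of 104.8 and 60.2 likewise match the same replicate regions. The gene pkg-2 hosted 4, and its peaks of 123.5 and 81.4 share their regions. The genes let-526, of a chromatin remodelling complex, R02F2.1 and T28B11.1 hosted 3 each. The R02F2.1 peaks of 74.7 and 72.9 also share their regions, so these counts may not all be of separate events. Another 9 genes had 3 sites inside the gene or nearest to its start. Of these, vhp-1, a phosphatase gene of MAP kinases, egl-27, mtm-3 and nhr-34 hosted 2 and pqm-1 and W06H8.6 hosted 1. The small GTPase gene rho-1, ins-13 and W09D10.4 hosted 0, and their 3 sites each lay outside the gene. The ins-13 peaks of 151.5 and 109.2 overlap and match the same replicate regions.

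Of din-1, a gene for a corepressor known to act with the nuclear receptor DAF-12, 4 sites were nearest or inside. A 5' UTR site had a signal of 88.5 and ranked 183 and 302. A site just after the gene's end had a signal of 56.1 and ranked 414 and 1543. A pair upstream had signals of 59.0 and 55.3 and ranked 3008 and 375, and 316 and 14563, in replicates 1 and 2. The first site was among the 994 strongest regions of both replicates, and the other 3 were among them in only 1 replicate each.

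Gene ends held more sites than their share of bases. A summit in a 3' UTR, or between genes and within 200 bp after a protein-coding end, was found for 59 of the 365 (16.2%, interval 12.5 to 20.3%), against 5.31% of the bases outside windows. Of these, 30 were in 3' UTRs and 29 just after an end. Their median signal was 60.3, against 63.0 over all non-promoter peaks. The 2 nearest ends can belong to different genes, so a site at an end cannot be assigned to 1 gene by position.

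The 5 strongest end sites were these. The first, in the 3' UTR of Y82E9BR.3 and just after the end of lelo-2, had a signal of 142.9 and ranked 30 and 143. A site between fat-1 and fat-2 at chrIV:13318702-13319125, just after the end of fat-1, had a signal of 112.2 and ranked 301 and 60. Both genes encode fatty acid desaturases, and fat-1 makes omega-3 fatty acids. A site in the 3' UTR of suro-1 and just after the end of pck-2, a phosphoenolpyruvate carboxykinase gene, had a signal of 103.9 and ranked 75 and 276.

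The site just after the end of ftn-2, a ferritin gene, had a signal of 102.8 and ranked 315 and 78. A site in the 3' UTR of cts-1, the citrate synthase gene, and just after the end of best-18 had a signal of 100.2 and ranked 380 and 74. Each of these 5 end sites was among the 994 strongest regions of both replicates. The order of the replicates varied, with Y82E9BR.3 and suro-1 ranked higher in replicate 1 and fat-1, ftn-2 and cts-1 higher in replicate 2.

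Coding exons and 5' UTRs held 23 sites in all, with a median signal of 58.6 over the 17 in coding exons and 63.0 over the 6 in 5' UTRs. The strongest coding exon site, in dos-3 and close to the end of zip-2, a bZIP transcription factor gene, had a signal of 130.7 and ranked 50 and 85. The next were in F25B5.5, downstream of the end of ubq-1, the polyubiquitin gene (89.7, ranks 259 and 210), and in F58G1.7 (87.2, ranks 203 and 356). The sites in Y71G12B.31 (86.8, ranks 296 and 315) and F01F1.3 (74.3, ranks 178 and 1349) followed. Of the 17, 6 were among the 994 strongest of both replicates.

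A few genes of central carbon metabolism are given as examples chosen after their values were seen, without a list or a count behind them. Besides its site beyond the gene end, pck-2 had a site in intron 2 with a signal of 119.5 and ranks of 56 and 125. A site in the 3' UTR of ptr-12 lay 1512 bp upstream of fbp-1, the fructose bisphosphatase gene (90.9, ranks 369 and 140). The glyoxylate cycle gene icl-1 hosted a site in intron 2 (54.5, ranks 984 and 464). Upstream of idh-1, an isocitrate dehydrogenase gene, a site had a signal of 63.6, with ranks of 15997 and 144. The sites at pck-2, fbp-1 and icl-1 were among the 994 strongest regions of both replicates, and the idh-1 site was far outside them in replicate 1.

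A few lipid and methyl-donor genes are further examples picked with their values known. Upstream of lpin-1, the lipin gene, there were sites with signals of 97.4 (ranks 306 and 122) and 73.9 (ranks 603 and 369). The acyl-CoA synthetase gene acs-2 had a site 3224 bp upstream (57.9, ranks 629 and 1017), and the desaturase gene fat-6 had one just after its end (53.9, ranks 451 and 3367). Sites 1748 and 2938 bp upstream of mtrr-1, the methionine synthase reductase gene of the B12-dependent methionine cycle, had signals of 53.7 (ranks 548 and 1372) and 59.6 (ranks 583 and 839). Of these 6 sites, both lpin-1 sites and the farther mtrr-1 site were among the 994 strongest of both replicates.

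A non-promoter peak lay within, or nearest to the start of, 331 of the 17242 autosomal protein-coding genes (1.92%). These genes were long, with a median length of 3411 bp against 1964 bp over all autosomal protein-coding genes. A longer gene offers more intronic sequence, and this was not adjusted for. Of the 331, 63 also had an optimal peak in their promoter window, which is 19.03% of the 331 and 13.8% of the 458 autosomal genes with a promoter peak. For comparison, 458 of all 17242 autosomal protein-coding genes had a promoter peak. This overlap was not tested, and it was not adjusted for gene length or for the number of starts. Examples picked from the 63 are pyc-1, pck-2, fbp-1, cts-1, icl-1, idh-1, acs-2, fat-6, the transcription factor genes skn-1, klf-1 and hlh-30, and the receptor genes nhr-31, nhr-34, nhr-43 and nhr-105.

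Of 246 autosomal nhr- genes, 13 had a non-promoter peak (5.28%, against 1.92% of all autosomal protein-coding genes). At nhr-10 itself the peak at chrIII:7116569-7116992 lay 1343 bp upstream of the start, with a signal of 107.4 and ranks of 873 and 46. The transgene carries nhr-10 and may carry its flanking sequence, so extra copies of this locus could be present, and their part in this peak was not tested. Within the 40 kb centred on nhr-10 lay 2 non-promoter peaks among 3 optimal peaks, and within the 40 kb centred on unc-119 none of either kind.

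Other nhr- sites covered a wide range of signal. The site 2173 bp upstream of nhr-105 had a signal of 113.3 and ranked 195 and 83. Sites upstream of nhr-34 (93.0, ranks 326 and 173) and nhr-162 (90.5, ranks 441 and 137) followed. The site upstream of nhr-88 had a signal of 82.2 and ranked 164 and 699. All 4 were among the 994 strongest regions of both replicates.

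The other nhr- sites ranged from 49.9 to 82.7. The strongest was a second nhr-19 site, also in intron 2, at 82.7, and 2 further nhr-34 sites were in introns (56.6 and 50.4). The sites at nhr-61 (67.1 and 50.9) and nhr-46 (60.1 and 55.4) came in pairs. Single sites were at nhr-43 (57.9), nhr-21 (57.4), nhr-31 (55.0), nhr-66 (53.7) and nhr-69 (49.9). The stronger nhr-61 site ranked 159 in replicate 1 but 7092 in replicate 2. The nhr-69 site was close to the lowest signal of any non-promoter peak, 49.6.

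Other gene lists had few genes with a non-promoter peak. Of 22 daf- genes, which act in dauer formation, 3 had one, daf-14, daf-16 and daf-5, all 3 with a site in an intron. The daf-14 and daf-5 genes act in TGF-beta signalling and daf-16 encodes the FOXO factor of insulin signalling. Of 22 egl- genes, 3 had one, egl-9, egl-27 and egl-30. The egl-9 site, upstream of this prolyl hydroxylase gene of the hypoxia pathway, had a signal of 109.1 and ranked 149 and 116. With 3 genes each, these shares of 13.6% rest on small counts, and both lists hold long genes, with medians of 5404 bp for daf- and 7953 bp for egl- genes.

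Counts were 2 of 41 for lin- genes, 2 of 78 for unc- genes, 2 of 106 for neuropeptide and insulin genes and 2 of 129 for collagen genes. They were 1 of 19 for hsp- genes, 1 of 76 for ribosomal protein genes, 1 of 218 for srh- receptors and 1 of 237 for clec- lectins. No member of the propionate shunt (5 genes), the ceh- homeobox genes (45) or the autosomal elt- genes (3) had a non-promoter peak. At 1.92% of all genes, none would be a common count for lists of 3 or 5, and not a rare one for a list of 45. The elt-, shunt and ceh- counts are therefore not informative on their own.

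Small structured RNA genes lay near a larger share of the non-promoter peaks than of the bases outside windows. A tRNA, snRNA, snoRNA or rRNA gene was within 500 bp of 25 summits (6.85%, interval 4.48 to 9.95%), against 27 of 389 autosomal promoter peaks (6.94%) and 0.937% of the bases. Of the 25, 14 were near a snoRNA gene, 8 near an snRNA gene, 3 near a tRNA gene and 0 near an rRNA gene. Any noncoding gene was within 500 bp of 94 (25.8%), against 27.5% of promoter peaks and 18.4% of the bases. The class annotated as ncRNA made up 55 of these (15.1%, against 18.5% of promoter peaks and 5.40% of the bases). The small transcripts of piRNA genes, which are dense on IV, were near 12 (3.29%, against 2.57% of promoter peaks and 6.28% of bases), of which 10 were on IV.

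The strongest snRNA neighbours were genes for SL2 RNA, the leader spliced onto downstream genes of operons. A peak at chrII:5543361-5543784, between C17C3.24 and ins-13, had its summit 25 bp from sls-2.2, with a signal of 151.5 and ranks of 51 and 30. An overlapping peak of signal 109.2 lay 73 bp from sls-2.2 and matched the same regions in both replicates. By signal, a peak near sup-6 (87.2) and 1 near R07E5.16 (82.8) came next, both genes being annotated as snRNA genes. A peak of signal 81.3 and ranks 182 and 749, 54 bp from sls-2.3, followed. The last 3 lay near sls-2.16 (75.4), sup-6 again (71.7) and F32B5.9 (58.9). The sup-6 peaks overlap each other and match the same regions in both replicates (ranks 203 and 356). Of the 8 peaks near an snRNA gene, 7 were among the 994 strongest of both replicates. The sls-2.2 and sup-6 pairs are counted there as separate peaks.

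The strongest snoRNA neighbour was C04A2.16, 457 bp from a site in intron 10 of egl-27 (signal 120.4, ranks 126 and 51). Next were T03F7.8 in cutl-18 (84.9, ranks 282 and 319) and ZK994.7 in pxn-1 (67.4, ranks 589 and 446). T26A8.6 held a summit with a signal of 59.2, and ZK20.9 lay 37 bp from the din-1 site of 59.0. Of the 14 peaks near a snoRNA gene, 5 were among the 994 strongest of both replicates. A second peak near T26A8.6, of signal 50.9, matches the same replicate regions as the first (ranks 205 and 2340) and is counted separately. The 3 sites near a tRNA gene, nearest to the starts of K02B2.6, B0228.7 and nhr-69, had signals of 63.6, 54.8 and 49.9.

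Of 6 microRNA neighbours, 1 had the summit inside the gene, mir-52 (signal 77.3, ranks 486 and 267). The others were mir-241, a let-7 family member (92.0, ranks 120 and 336), mir-60 (69.0), mir-80 (65.4), mir-58a (59.9) and mir-229 (58.3). Their distances were 26 bp for mir-60, 205 bp for mir-80, 329 bp for mir-229, 336 bp for mir-58a and 477 bp for mir-241. Long intergenic noncoding RNA genes held 4 summits, in linc-128, linc-91 (95.4), linc-96 (58.0) and linc-105 (57.3). Antisense RNA genes were near 7 (1.92%, against 0.257% of promoter peaks and 0.188% of bases), 3 of them near anr-20 in ppfr-1. The anr-20 peaks of 97.6 and 59.2 match the same replicate regions, so the 7 may not all be separate sites.

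A repeat of GA and an E-box had higher shares at the summits than in the flanks. Of 10 motifs searched on both strands within 50 bp of the summit, GAGAGA was found at 117 of 365 non-promoter peaks (32.1%, interval 27.3 to 37.1%). It was found at 24.9% of autosomal promoter peaks, in 9.04% of the 730 flank windows centred 300 bp away, and in 4.98% of all 596161 windows of 101 bp outside promoters. The E-box CACGTG was at 33 (9.04%), against 6.17% of promoter peaks, 2.47% of flanks and 1.72% of all windows. The GATA form TTATCA was at 71 (19.5%), against 16.2%, 9.73% and 8.91%. The form TTATCT was at 32 (8.77%), against 7.46%, 6.44% and 5.57%. These shares are descriptions, and a match is not a site of binding.

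For the core sites of nuclear receptors the shares at summits and in flanks were within 3 percentage points. AGGTCA was at 14 (3.84%), against 3.34% of promoter peaks, 3.01% of flanks and 2.31% of all windows. AGTTCA was at 18 (4.93%), against 5.40%, 7.12% and 6.59%. The AP-1 form TGACTCA was at 3 (0.822%, against 0.514%, 0.959% and 0.817%). The cAMP response element TGACGTCA was at 1 (0.274%), the fos-1 site shown above, against 2.06%, 0.274% and 0.600%. The tRNA B box GGTTCGA was at 6 (1.64%), against 0.771%, 0.411% and 0.771%. GCGCAGGG, a core of the MEX motif of the X chromosome, was at 0, against 0% of promoter peaks and flanks and 0.0257% of all windows.

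**Figure D3:**
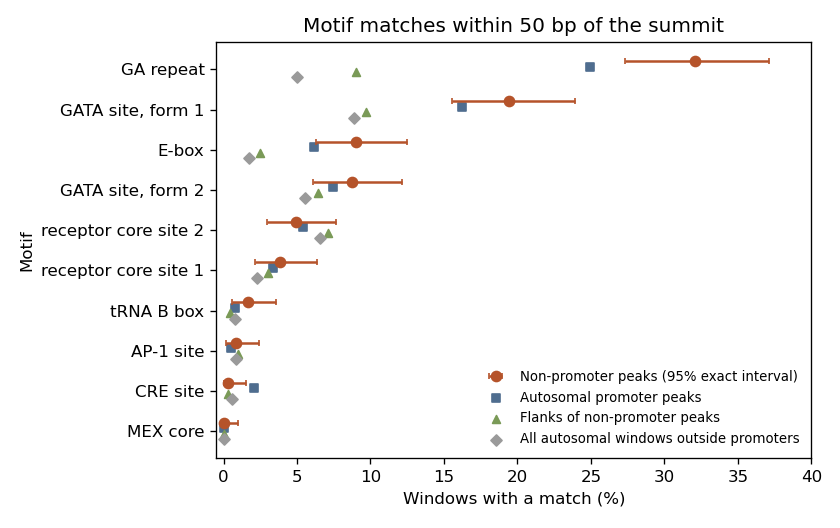
Share of windows with each motif, in percent, for the non-promoter peaks (circles with exact 95% intervals), autosomal promoter peaks (squares), flanks of the non-promoter peaks (triangles) and all autosomal windows outside promoters (diamonds). The GA repeat has the highest share, 32.1% at non-promoter peaks and 9.04% in flanks, and the receptor core sites lie within 3 percentage points of their flanks.

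Among all 2080 6-mers counted with their reverse complements, GAGAGA also had the largest excess over flanks on I, II and III, at 34.3% of 216 peaks and 9.95% of flanks. On IV and V, which were not used for that ranking, it was at 28.9% of 149 peaks and 7.72% of flanks. The sixth was CGTCTC, at 18.1% and 2.31% on I, II and III and at 17.4% and 1.68% on IV and V. Overlapping words at ranks 8, 11 and 14 share the longer word AGACGCAG, which was chosen after the ranking was seen. It was found at 40 of 365 non-promoter peaks (10.96%), against 10.5% of autosomal promoter peaks, 2.82% of the 142 X peaks outside promoters, 0.959% of flanks and 0.494% of all windows. Of the 40, 25 also held GAGAGA, and the sites at Y111B2A.12 and Y105C5B.1413 above are among the 40.

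Motif shares were also split by class, signal and support, in splits chosen after the data were seen. GAGAGA was at 47 of 121 intronic peaks (38.8%), 62 of 191 intergenic peaks (32.5%), 3 of 30 in 3' UTRs (10%) and 7 of 59 at gene ends (11.9%). Near small structured RNA genes it was at 2 of 25. By quartile of pooled signal, from strongest to weakest, it was at 35.9%, 34.1%, 38.5% and 19.8%. The word AGACGCAG was at 19.6% of the strongest quartile and at 7.69%, 8.79% and 7.69% of the other 3. A GATA form, TTATCA or TTATCT, was at 26.4% of intronic, 26.7% of intergenic and 27.1% of gene end peaks. By quartile it was at 16.3%, 31.9%, 19.8% and 34.1%. It was at 42 of the 200 peaks with support in both replicates, as defined below (21%), and at 51 of the other 165 (30.9%). Neither GATA form, the E-box nor GAGAGA was found at 156 of the 365 (42.7%), among them the pyc-1 site. Nearest copies within 150 bp lay a median of 41 bp from the summit for GAGAGA, at 206 peaks, and 59.5 bp for the E-box, at 75.

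Base composition differed between these sets of windows. The 101 bp around the summit had a median GC content of 42.6%, against 35.6% in flanks, 45.5% at promoter peaks and 35.6% in all windows. In 3' UTR peaks it was 34.2%, and in intronic peaks 45.5%. Sequence masked as repetitive or of low complexity filled over 50% of the window at 4.93% of non-promoter peaks, 6.68% of promoter peaks, 22.3% of flanks and 33.1% of all windows. Of the 117 windows with GAGAGA, 7 were masked over more than 50%. The part of base composition in the motif shares was not tested.

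The share of non-promoter peaks supported by both replicates was close to that of all optimal peaks, which include them. A region among the 994 strongest of each replicate overlapped 200 of the 365 (54.8%, interval 49.5 to 59.98%), against 54% of all 994 optimal peaks. A further 74 had such support in replicate 1 only, 72 in replicate 2 only and 19 in neither. Among the 171 that belong to the 497 optimal peaks of highest pooled signal it was 156 (91.2%), and among the other 194 it was 44 (22.7%). The pooled list is made from both replicates, so this relation to signal is built in. By chromosome the share was 59.2% on IV, 58.3% on III, 57.3% on II, 52.1% on V and 45.2% on I.

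The share did not differ detectably from that of autosomal promoter peaks, 198 of 389 (50.9%), in Fisher's exact test (difference 3.89 percentage points, adjusted p = 0.461 over 3 tests, two-sided). Nor did it differ detectably from X peaks outside promoters, 88 of 142 (62.0%, interval 53.5 to 70.0%; exact adjusted p = 0.461). Intronic peaks had support in 72 of 121 (59.5%) and intergenic peaks in 105 of 191 (55.0%, exact adjusted p = 0.482). The first comparison changed with the setting. With the 497 strongest optimal peaks the difference was 9.41 points and passed (Fisher's exact adjusted p = 0.0300). Those peaks were selected by pooled signal, which is not independent of rank in the replicates. With the rank limit at the 500 strongest regions per replicate it was -3.48 points (exact adjusted p = 0.444). These p-values are over peaks and describe these 2 libraries, not variation between worms.

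**Figure D4:**
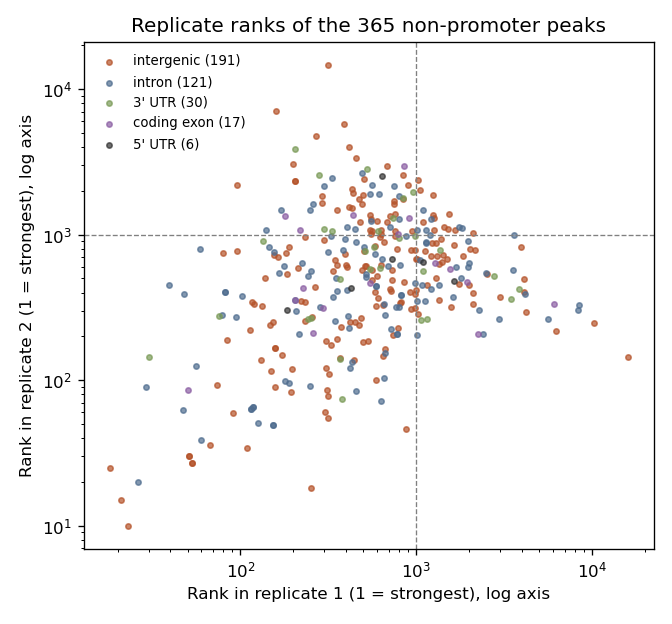
Rank of each of the 365 non-promoter peaks in replicate 1 and replicate 2 (log axes, 1 is the strongest region of that replicate), coloured by summit class, with dashed lines at rank 994. The 200 peaks below and left of both lines have support in both replicates, and a few lie beyond rank 5000 in 1 replicate.

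Single sites could rank very differently in the replicates. Replicate 2 ranked 187 of the 365 higher and replicate 1 178. The largest ratios toward replicate 1 were at din-1 (316 and 14563), nhr-61 (159 and 7092) and tps-2, a trehalose phosphate synthase gene (96 and 2183). Toward replicate 2 they were at idh-1 (15997 and 144), K07F5.15 (10177 and 246) and emb-8, which encodes a cytochrome P450 reductase (6200 and 217). All 6 were intergenic, with pooled signals from 52.4 to 75.9. Each was thus among the 994 strongest regions of 1 library and outside them in the other.

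Pooled signal of the non-promoter peaks had a median of 63.0 and ranged from 49.6 to 224.0. The median was 64.5 in autosomal promoter peaks and 68.4 in X peaks outside promoters. Among the 100 optimal peaks of highest signal were 26 non-promoter peaks, 36 autosomal promoter peaks and 27 X peaks outside promoters. By class the median was 66.7 in introns, 62.5 between genes, 61.1 in 3' UTRs and 58.6 in coding exons. The ranges of all classes overlapped widely.

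**Figure D5:**
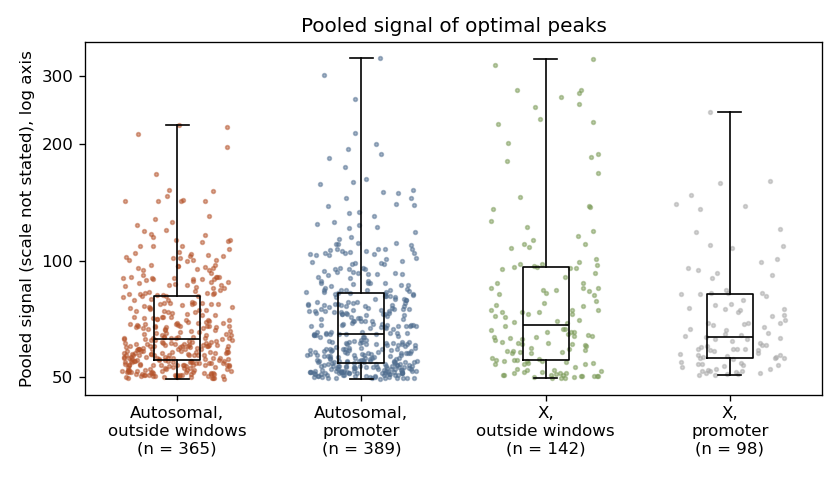
Pooled signal of each optimal peak (points, log axis, scale not stated by the authors) by chromosome type and position, with boxes at the quartiles, a line at the median and whiskers to the lowest and highest value. The 4 groups overlap over most of their range, and the highest values are 224.0 in autosomal peaks outside promoter windows and 333.1 in autosomal promoter peaks.

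Some non-promoter peaks may not be separate events, which was not tested. Another optimal peak overlapped 23 of the 365, and 96 had a neighbouring summit within 2000 bp, which was another non-promoter peak for 62 and a promoter peak for 34. In each replicate, 22 shared their best-matching region with another non-promoter peak, so their ranks are not independent. Start windows of genes of other biotypes held 93 of the 365 summits, and 272 lay in no start window of any biotype.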

How the data were processed

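Peaks of 2 biological replicates of 1 group were analysed on ce11. Per the file headers and format, the authors called regions against 1 control and deposited for each a signal value, whose scale they do not state. The authors also deposited a −log10 q-value for each region, in the column the narrowPeak format reserves for it, which was 3.43 in all 994 optimal peaks and was not used. For the aligner, the peak caller and the IDR cutoff, nothing is given in the sources used here. No read counts are in the lists, so depth and the precision it gives are unknown, and intervals cover only the sampling of peaks. The ce10 lists were not used.

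Summits were placed on Ensembl release 115 genes and assigned to 1 class each, coding exons before 5' UTRs, these before 3' UTRs and other exons, then introns, then intergenic sequence. Replicate support (overlap by at least 1 bp with a region among the 994 strongest of each replicate) was compared by Fisher's exact test, two-sided, with Benjamini-Hochberg adjustment over 3 tests at 0.05. Intervals are 95% Clopper-Pearson intervals. Base shares count every autosomal base outside the windows. Scripts used Python 3.11.15, scipy 1.17.1, numpy 2.4.6 and matplotlib 3.10.9 and were tested on simulated data.

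Sites were named by rule. It took the 15 of highest signal, the 5 highest in introns, between genes, at gene ends and in coding exons, and the 5 highest near each of tRNA, snoRNA, snRNA, miRNA and lincRNA genes. It also took genes with at least 3 peaks, the 3 largest rank ratios each way, every nhr- gene and the sites next to the window edge. Other names were chosen after their values were seen. The peaks, gene lists and motifs were chosen with earlier results of these data known.

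Alternatives were other promoter windows, starts of all biotypes, the 497 strongest peaks, each replicate alone, other rank limits, summit overlap, and other distances and motif windows. The word AGACGCAG and the motif splits were added after seeing the data.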

Additional observations from a re-analysis of the deposited data

How the results depend on the processing

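Of 87 values recomputed under alternatives, 69 stayed within the limits set, which allowed large shifts. Within them was the support difference against X peaks, -7.18 points in the main setting and -0.0219 among the 497 strongest. With starts of all biotypes, the difference against promoter peaks went from 3.89 to 0.244 points and the count from 365 to 272, also within them. The number of non-promoter peaks was 242 with a window from 2000 bp upstream to 500 bp downstream and 171 among the 497 strongest optimal peaks. The median distance to a start was 1532.5 bp with the window of 500 bp upstream and 2464 bp with the widest, as their construction gives. Without replicate 1 and without replicate 2 the count was 386 and 371 and the 3' end share 16.3% and 20.5%. That share was 12.3% among the 497 strongest and 8.22% for 3' UTRs alone. Noncoding neighbours were 4.41% when starts of all biotypes were excluded, which removes them by construction, and were 19.7% within 200 bp and 31.2% within 1000 bp. Support against autosomal promoter peaks differed by 9.41 points among the 497 strongest, where it passed (Fisher's exact adjusted p = 0.0300). It was -3.48 points with the 500 strongest regions. The cause of either change was not tested. Within 100 bp of the summit, shares were 37.5% for TTATCA, 14.8% for TTATCT, 8.77% for AGTTCA, 47.9% for GAGAGA and 15.6% for CACGTG, and in flanks of that width 19.9%, 13.3%, 13.4%, 15.9% and 4.79%. GGTTCGA was at 0.585% among the 497 strongest.

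No paired analysis was possible because there is only 1 group. With 2 libraries, a shared control and no counts, differences in enrichment between sites cannot be given an error, and no other tagged factor was analysed, so a peak at these sites is not shown to be particular to NHR-10.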
